A study of Mus musculus with 18 samples.

Results

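Interferon-stimulated genes are described here across 18 libraries of activated mouse T cells. The set holds 41 genes named by symbol, and all 41 were found among the 55487 Ensembl genes of the deposited count table. They fall into 8 groups by role: transcription factors, nucleic acid sensors, the ISG15 system, the IFIT and OAS families, other antiviral effectors, guanylate-binding proteins (GBPs), immunity-related GTPases (IRGs) and other induced genes. Spleen T cells sorted by flow cytometry were cultured for 72 h with IL-2 (10 ng/ml) on plates coated with anti-CD3 (2 µg/ml), with anti-CD28 at 2 µg/ml, and 3' mRNA tags were counted with molecular identifiers. The 6 groups, with 3 libraries each, were CD8 KO, CD8 WT, Treg KO, Treg WT, CD4 KO and CD4 WT. KO stands for the strain Foxp3 YFP/cre Ebi3 -/-, and WT for the strain Foxp3 YFP/cre. Both genotypes therefore carry the YFP/cre allele of Foxp3, the gene of the factor that defines regulatory T cells (Treg). Ebi3 codes for the chain that the cytokines IL-27 and IL-35 have in common. No source used here gives the age and sex of the mice, any pooling of animals or the part of Ebi3 that was deleted. Nor is the source of each replicate (its own animal, its own culture) stated, so every p-value reflects the spread among these libraries alone, which may be technical.

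Type I interferons signal through IFNAR1 and IFNAR2 to genes that carry the interferon-stimulated response element (ISRE), with STAT2 and IRF9 among the factors that act there. Interferon gamma signals through IFNGR1 and IFNGR2 to genes that carry the gamma-activated sequence (GAS). Activated CD8 T cells and Th1 cells make interferon gamma, and T cells themselves respond to both kinds of interferon. IFIT, OAS and Mx proteins act on viral RNA and nucleoproteins, whereas GBPs and IRGs attack the vacuoles of intracellular pathogens.

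Promoter windows of 300 bases (250 before to 50 after the start site, RefSeq, GRCm38.p6) were available for 30 of the 41 genes, 36 windows in all. The ISRE core, GAAANNGAAA on either strand, was present in windows of 18 of the 30 genes, and in 50.0% of their windows, against 3.44% of all 32851 windows. The GAS motif, TTCNNNGAA, was present in 12 of the 30 genes and in 33.3% of their windows, against 8.3% of all windows. Every GBP with a window (4 of 4) and 4 of 5 IRGs held the ISRE core. A match is only a run of letters, and genes of 1 family can share it by descent. The stretches below are those that hold all matches in the windows of 4 members on which the results turn, with 20 bases on either side. Capitals mark the motif matches.
Igtp: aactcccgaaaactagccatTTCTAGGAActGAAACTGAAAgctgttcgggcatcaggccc
Irgm2: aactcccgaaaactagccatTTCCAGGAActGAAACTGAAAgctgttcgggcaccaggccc
Bst2: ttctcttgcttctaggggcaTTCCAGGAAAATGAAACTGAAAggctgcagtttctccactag
Ifit1: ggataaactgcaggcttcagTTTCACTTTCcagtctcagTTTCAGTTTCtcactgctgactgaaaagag
The Igtp stretch lies at chr11:58199491-58199551 (plus strand) and that of Irgm2 at chr11:58214882-58214942 (plus strand). They shared 59 of 61 bases (96.7%), and in both the ISRE core started 11 bases after the start of the GAS. Tgtp1, another IRG, had the same 11 bases from start to start. In Bst2 (chr8:71537567-71537628, minus strand) the GAS overlapped the first of 2 overlapping ISRE cores. Ifit1 (chr19:34640765-34640833, plus strand) held 2 ISRE cores on the opposite strand and no GAS. No match was found in the windows of Ifi44, Oasl2, Xaf1, Irf7, Irf9, Ifi47 or Oasl1.

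Total counts ran from 1819035 to 2077358 in CD8, from 841892 to 1089003 in Treg and from 1358671 to 2255950 in CD4 libraries. A floor of 3 counts came to 1.44 to 1.63 CPM in CD8, 2.87 to 3.89 CPM in Treg and 1.31 to 2.19 CPM in CD4. CPM stands for counts relative to library size after TMM scaling, and floors and intervals cover counting error only. The Treg libraries detected 20034 to 20596 genes at lower depth, against 16193 to 17254 in CD4. Ebi3, the targeted gene, stood at 24.2 to 34 CPM in CD8 KO and 28 to 29.7 in CD8 WT. It stood at 24.6 to 34.5 CPM in Treg KO and 25.8 to 40.1 in Treg WT, and at 20.6 to 26.1 CPM in CD4 KO and 38.7 to 60.5 in CD4 WT. Only the CD4 libraries were separated by it. If the tags fall beyond the deletion this is no check of the genotype, so KO and WT mean the libraries so labelled.

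Cd8a and Cd4 marked the CD8 and CD4 groups, whereas the libraries labelled Treg held both, with Cd8a at 24.9 to 46.7 CPM and Cd4 at 34.4 to 68 CPM. No library had more than 1 count of Foxp3, so Treg is used only as a label. Treg KO replicates 1 and 3 showed differences below the sampling noise, as did Treg WT replicates 1 and 2. Each such pair counts as 1 sample in means, which leaves n = 2 per genotype. The same held for 4 of the 9 pairs made of a Treg KO and a Treg WT library. B cell markers (10 genes) summed to 2666 to 6519 CPM, more than the 8 T cell markers, which summed to 473.2 to 1148 CPM. Fewer cells of a type and less RNA per cell cannot be told apart in such bulk libraries.

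The summed level of the 41 genes was 1296 to 1599 CPM in CD8 KO, 1139 to 1433 in CD8 WT, 1703 to 1972 in Treg KO, 1624 to 1928 in Treg WT, 1471 to 1658 in CD4 KO and 1565 to 1924 in CD4 WT. KO and WT overlapped in every cell type. CD8 WT lay entirely below CD4 WT, and CD8 KO overlapped CD4 KO. Few genes carried most of this sum. Tags come from the transcript end and are not divided by length, so levels of different genes are compared only roughly. Samhd1, which depletes the nucleotides that viral reverse transcription needs, had the highest count of any member. Its level was 251, 260 and 342 CPM in CD8 KO, and 213, 241 and 266 CPM in CD8 WT. It was 445, 454 and 385 CPM in Treg KO, and 430, 419 and 439 CPM in Treg WT. In CD4 KO it was 304, 300 and 294 CPM, and in CD4 WT 409, 280 and 300 CPM. Every Treg KO library thus lay above every CD8 and CD4 KO library. Irf1, an early transcription factor of interferon gamma signalling, followed with 172, 154 and 223 CPM in CD8 KO and 133, 128 and 171 CPM in CD8 WT. In Treg KO it had 148, 202 and 176 CPM, and in Treg WT 181, 188 and 194 CPM. In CD4 KO it had 156, 197 and 181 CPM, and in CD4 WT 260, 170 and 204 CPM.

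Igtp (an IRG) averaged 138 ± 5.24 CPM in CD8 KO, 150 ± 5.96 in CD8 WT, 121 ± 24.7 in Treg KO, 112 ± 14.1 in Treg WT, 203 ± 42.4 in CD4 KO and 184 ± 5.13 in CD4 WT (SD, n = 3, or 2 in Treg). Gbp7, a GBP, had 65, 63.9 and 75.7 CPM in CD8 KO and 51.2, 58.6 and 71.7 CPM in CD8 WT. It had 85.1, 101 and 89.6 CPM in Treg KO and 92, 72.5 and 99.4 CPM in Treg WT, and 74.3, 71.6 and 59 CPM in CD4 KO and 86, 77.8 and 77 CPM in CD4 WT. The highest value was in Treg KO and the lowest in CD8 WT. Ddx58, which encodes the viral RNA sensor RIG-I, had 41.2, 42.8 and 72.8 CPM in CD8 KO and 27.6, 31.1 and 44 CPM in CD8 WT. It had 57.1, 79.5 and 67.5 CPM in Treg KO and 57, 44.2 and 65 CPM in Treg WT, and 40.7, 64.8 and 33.2 CPM in CD4 KO and 75.8, 46.9 and 50.6 CPM in CD4 WT. KO and WT overlapped in all 3 cell types. Ifi27l2a had 60.8, 90 and 60.2 CPM in Treg KO and 62.2, 81.1 and 87 CPM in Treg WT, and its CD8 and CD4 values are given with their comparison. Isg15, a ubiquitin-like modifier, had 8.13, 10.3 and 6.71 CPM in CD8 KO and 9.03, 3.06 and 10.4 CPM in CD8 WT. It had 14.6, 16.3 and 11 CPM in Treg KO and 18.1, 14.7 and 24.8 CPM in Treg WT, and 10.5, 13.6 and 7.49 CPM in CD4 KO and 21.1, 13.5 and 11.2 CPM in CD4 WT. Again KO and WT overlapped in all 3. Oas3, which makes the second messenger that activates RNase L, had 10.8, 7.73 and 10.1 CPM in CD8 KO and 14.6, 13.7 and 5.93 CPM in CD8 WT, and 17, 5.74 and 6.14 CPM in Treg KO and 10.4, 7.37 and 10.5 CPM in Treg WT. Its CD4 values follow with the KO comparison.

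The classical type I targets Ifit3, Mx1, Oas1a, Oas2 and Oasl1, and the GBP gene Gbp6, were too low to pass the filter of edgeR. They were present at no more than 7.64 CPM in any library, with Oas1a under the floor in all 18. Of the 35 members that passed, Ifi44, Ifit1, Oasl2, Rtp4 and Xaf1 passed only through Treg libraries.

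**Figure D1:**
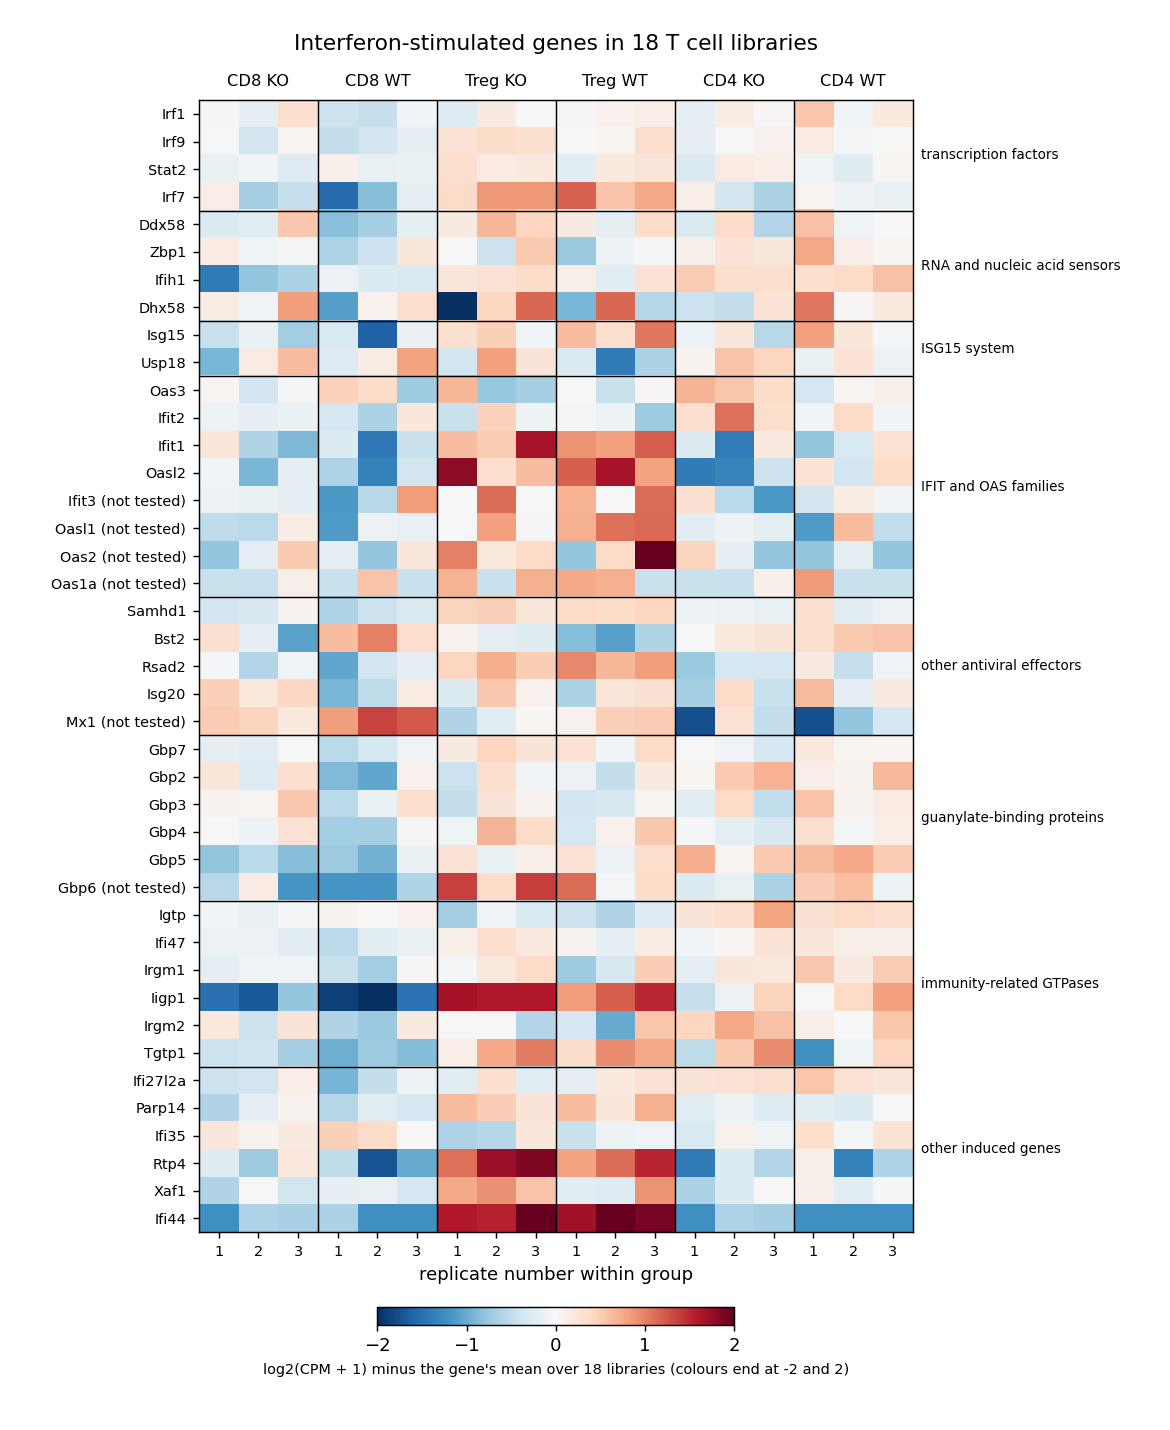
Level of each of the 41 genes (rows, by role) in each of the 18 libraries (columns, by group), as log2(CPM + 1) minus the gene's mean over the libraries; red is above and blue below that mean. Iigp1 is low in all 6 CD8 libraries and high in the Treg libraries, and Ifi44 and Rtp4 are high in Treg.

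Libraries labelled KO and WT were compared within each cell type. In CD8 cells 0 of 35 members passed the threshold, an adjusted p under 0.05 in the quasi-likelihood test of edgeR with Benjamini-Hochberg adjustment. The members' log2 fold changes ran from -0.91 to 1.14. Of the 12693 genes tested 0.165% passed, 0.0551% higher and 0.11% lower. At an unadjusted p under 0.05 there were 7 members, 5 higher and 2 lower, where the background share was 16.3%, and DESeq2 called 1 (Bst2). Of 34 members with a fold change (Ifi44 was at or under the floor), 25 were positive, with a median log2 fold change of 0.24, whereas 49.7% of all genes were positive and their median was 0. Of the 5 GBPs tested 4 were positive, as were 5 of 6 IRGs and 3 of 4 sensors, and none of these was called. In 2 members (Isg20 and Tgtp1) every KO library lay above every WT library, where 9.17% of all genes did so, and in 3 (Bst2, Ifih1 and Igtp) below, where 8.19% did.

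Bst2 encodes tetherin, which holds budding virions at the cell surface. It is at chr8:71534255-71537456 on the minus strand. Its level was 56.9, 39.7 and 21.1 CPM in CD8 KO and 70.3, 91.7 and 57.8 CPM in CD8 WT. Every KO library lay below every WT library. The log2 fold change was -0.91 (SE 0.22) with an unadjusted p = 0.000308, and it missed the threshold over all genes (edgeR adjusted p = 0.0664). DESeq2 gave -0.94 (adjusted p = 0.0233), and edgeR without a filter on low counts -0.92 (adjusted p = 5.63e-06). Without CD8 KO replicate 1 edgeR gave -1.28 (adjusted p = 0.00857), without CD8 WT replicate 3 -1.06 (adjusted p = 0.00847), and without CD8 KO replicate 3 -0.60, which was not called. The call therefore depended on the test and on single libraries.

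Ifih1 encodes MDA5, a sensor of long double-stranded RNA. It was at 4.33, 7.21 and 8.14 CPM in CD8 KO and 12, 10.7 and 10.4 CPM in CD8 WT. The groups did not overlap, with a log2 fold change of -0.73 (SE 0.27, edgeR adjusted p = 0.177). Isg20, an exonuclease that degrades RNA, went the other way, with 29.3, 24.2 and 27.8 CPM in CD8 KO and 10.5, 14.3 and 23.2 CPM in CD8 WT. Here every KO library lay above every WT library, and the log2 fold change was 0.75 (SE 0.28, edgeR adjusted p = 0.196). Isg20 passed without CD8 WT replicate 3 (1.12, adjusted p = 0.0296) and with no filter on low counts (0.75, adjusted p = 0.0413).

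Markers of cell types were read for the same comparison. In CD8 all 10 B cell markers had positive fold changes of KO over WT (median log2 0.50), as did all 6 tested erythroid and platelet markers (median 0.62), while all 7 tested T cell markers were negative (median -0.34). None of them was called. B cell markers summed to 4174 to 5764 CPM in CD8 KO and 2666 to 4578 CPM in CD8 WT. CD8 WT replicate 3, which had the highest B cell sum of its group, also had the highest value of its group for 24 of the 35 tested members. Without it, 3 members (Isg20 among them) were called higher and 1 lower (Bst2) in KO. The part of B cell RNA in the members' levels was not tested. Bst2 and Ifih1 had negative fold changes, opposite in sign to the B cell markers and the same in sign as the T cell markers. The reverse held for Isg20.

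In CD4 cells 0 of 35 members were called (edgeR; background 0% of genes), 2 had an unadjusted p under 0.05 where the background share was 7.32%, and DESeq2 called 0. The signs ran the other way than in CD8: 8 of 34 members with a fold change were positive, with a median log2 fold change of -0.18, while 48.2% of all genes were positive. In 1 member (Oas3) KO lay entirely above WT (background 4.89%) and in 3 (Oasl2, Bst2 and Gbp7) entirely below (4.71%). All 4 sensors and all 4 tested antiviral effectors were negative, between -0.75 and -0.04, and 3 of 6 IRGs were positive. The 10 B cell markers were all negative here (median -0.42), and the 7 T cell markers positive (median 0.29). B cell markers summed to 3192 to 4386 CPM in CD4 KO and 3620 to 6519 CPM in CD4 WT, with the highest value in WT replicate 1. That library also had the highest value of its group for 19 of the 35 members, and without it the median was -0.09. The part of B cell RNA was again not tested.

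Oasl2, an OAS-like protein, had 0.437, 0.523 and 1.87 CPM in CD4 KO and 3.64, 1.93 and 3.94 CPM in CD4 WT. KO lay below WT, at levels near the floor, with a log2 fold change of -1.62 (SE 0.65, edgeR adjusted p = 0.657). Oas3 had 17.1, 15.7 and 13.6 CPM in CD4 KO and 8.01, 10.6 and 11.2 CPM in CD4 WT. It lay higher in each KO library, with a log2 fold change of 0.61 (SE 0.29, edgeR adjusted p = 0.667). Iigp1, an IRG that disrupts pathogen vacuoles, had 10.9, 14.1 and 21.5 CPM in CD4 KO and 15.3, 20.8 and 28.1 CPM in CD4 WT. Those groups overlapped (log2 fold change -0.49, SE 0.25, edgeR adjusted p = 0.707).

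In the Treg libraries 0 of 35 members were called (edgeR; background 0%), 1 had an unadjusted p under 0.05 where the background share was 2.16%, and DESeq2 called 0. The members split into 20 positive and 15 negative, with a median log2 fold change of 0.10, and 49% of all genes were positive. Treg WT replicate 3 had the highest value of its group for 27 of the 35 members and Treg KO replicate 2 for 19. These libraries also had the highest B cell sums of their groups (5178 and 5272 CPM) and the highest T cell sums (608.8 and 635.7 CPM). Their total counts were the highest as well (1089003 and 1085238). The part of B cell RNA, T cell RNA or depth was not tested. With 1 Treg library left out, 20 to 26 members were positive, with medians of 0.02 to 0.20 (25 and 0.19 without Treg WT replicate 3). In 2 members (Bst2 and Iigp1) KO lay entirely above WT (background 4.46%) and in 0 below (4.94%). The member with the unadjusted p under 0.05 was Bst2, with 47.4, 39.3 and 38.1 CPM in Treg KO and 24.6, 20.9 and 29.6 CPM in Treg WT. Every KO library lay above every WT library, opposite to CD8 (log2 fold change 0.71, SE 0.32, edgeR adjusted p = 0.999). The difference between the Treg and CD8 effects of Bst2 was not tested. Iigp1 had 51.1, 48.8 and 49.1 CPM in Treg KO and 28.5, 36.9 and 45.9 CPM in Treg WT, again without overlap (0.40, SE 0.25, edgeR adjusted p = 0.999). Usp18, which removes ISG15 from proteins and damps interferon receptor signalling, had 3.65, 9.57 and 6.14 CPM in Treg KO and 3.89, 1.23 and 2.87 CPM in Treg WT. Its groups overlapped near the floor (1.31, SE 0.65, edgeR adjusted p = 0.999).

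**Figure D2:**
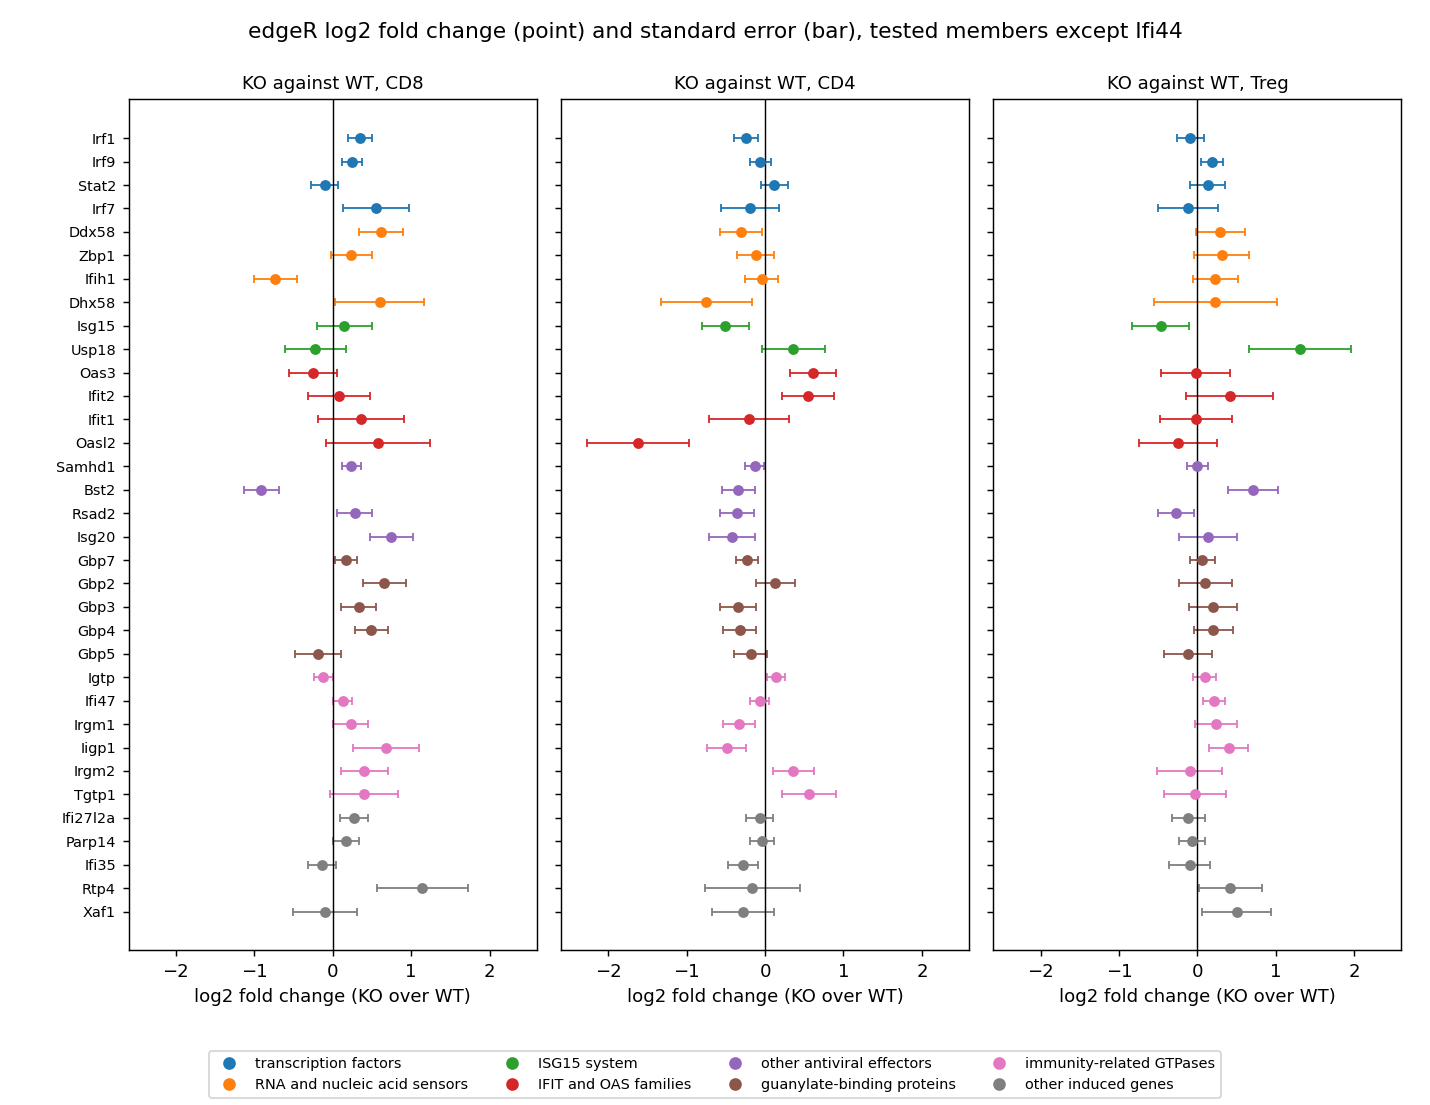
Log2 fold change of KO over WT (x axis) for 34 tested members (rows, coloured by role; Ifi44 is left out) in CD8, CD4 and Treg libraries; points are edgeR estimates and bars 1 standard error. In CD8 25 of the 34 members lie right of 0, in CD4 8 of 34, and none passed the threshold in any cell type.

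The difference between the CD8 and CD4 effects was tested directly. It was called for 0 of 35 members by edgeR (background 0%) and for 0 by DESeq2, and 11 members had an unadjusted p under 0.05 where the background share was 17.9%. The lowest adjusted p belonged to Isg20, whose CD8 effect exceeded its CD4 effect by 1.17 on the log2 scale (SE 0.41, edgeR adjusted p = 0.135). Gbp4 followed with 0.80 (SE 0.29) and Irf1 with 0.59 (SE 0.21), both with an edgeR adjusted p = 0.151. Gbp8 and Gbp9 cover the 3' end of Gbp4 on the same strand, so the values of Gbp4 are uncertain. Bst2 differed by -0.58 (SE 0.30, edgeR adjusted p = 0.328). With 1 library left out edgeR called 0 to 3 members, 3 of them without CD8 WT replicate 3. On the same contrast all 10 B cell markers were positive, with a median of 0.92. With no filter on low counts edgeR called 3 members, Ddx58, Irf1 and Isg20.

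Between CD8 and CD4 libraries every member called was lower in CD8. In KO, 4 members were lower and 0 higher (edgeR), which is 11.4% of 35 called lower against 2.21% of all genes. Among all genes 1.37% were called higher and 3.58% in either direction. In WT, 7 of 35 were lower and 0 higher, against 1.88% of all genes lower, 3.49% higher and 5.37% in either direction. Iigp1 and Gbp5 were lower in both genotypes, 2 of the 4 called in KO and 2 of the 7 called in WT, which is 5.71% of the members tested, where 0.772% of all genes were called lower in both. These comparisons use separate libraries. At an unadjusted p under 0.05 there were 10 members in KO (background 15.4%), 9 of them lower, and 18 in WT (background 20%), all lower. CD8 lay entirely below CD4 for 9 members in KO (background 8.99%) and 13 in WT (7.77%), and entirely above for 0 in both (10.1% and 11.1%). Of 34 members with a fold change 10 were positive in KO, where 52.9% of all genes were, and 5 in WT, where 46.5% were.

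Iigp1 (chr18:60376027-60392634, plus strand) had the largest difference in WT, and Ifih1 in KO. Iigp1 had 4.88, 4.12 and 8.62 CPM in CD8 KO and 10.9, 14.1 and 21.5 CPM in CD4 KO. It had 3.51, 2.55 and 4.94 CPM in CD8 WT and 15.3, 20.8 and 28.1 CPM in CD4 WT. Every CD8 library lay below every CD4 library. The log2 fold change was -1.37 (SE 0.31, edgeR adjusted p = 0.00729) in KO and -2.54 (SE 0.34, edgeR adjusted p = 3.37e-06) in WT. In KO the call was lost without CD8 KO replicate 2 (-1.17, adjusted p = 0.0553) and without CD4 KO replicate 3 (-1.05, adjusted p = 0.118).

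Gbp5, a GBP that promotes inflammasome assembly, lies at chr3:142493978-142522344 on the plus strand. It had 8.13, 9.79 and 7.66 CPM in CD8 KO and 24.9, 15.2 and 21.5 CPM in CD4 KO. It had 8.53, 7.13 and 13.3 CPM in CD8 WT and 23.3, 25.6 and 21.4 CPM in CD4 WT. The groups did not overlap in either genotype, and the log2 fold change was -1.27 in both (SE 0.25, edgeR adjusted p = 0.0011 in KO; SE 0.24, edgeR adjusted p = 0.000846 in WT). Both calls of Gbp5 held with any 1 library of the comparison left out.

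Among the IRGs all 6 had negative fold changes in both genotypes, with medians of -0.56 in KO and -0.69 in WT. Igtp, called lower in KO, had 140, 132 and 142 CPM in CD8 KO and 174, 183 and 252 CPM in CD4 KO. It had 152, 144 and 155 CPM in CD8 WT and 180, 190 and 183 CPM in CD4 WT, so that CD8 lay below CD4 in both. Its log2 fold change was -0.55 (SE 0.12, edgeR adjusted p = 0.00493) in KO, lost without CD4 KO replicate 3 (-0.37, adjusted p = 0.122), and -0.30 (SE 0.12, edgeR adjusted p = 0.165) in WT. Irgm1, a regulatory IRG, was called lower in WT with 19.1, 15.8 and 26.7 CPM in CD8 WT and 38.6, 30 and 37.7 CPM in CD4 WT. Its log2 fold change was -0.77 (SE 0.21, edgeR adjusted p = 0.0282), against -0.21 in KO, where it was not called. Ifi47 was also called lower in WT (-0.44, SE 0.12, edgeR adjusted p = 0.0284). Irgm2 covers the 3' end of Igtp on the same strand, Ifi47 overlaps Olfr56 and Tgtp1 has a near-identical copy, Tgtp2. Reads of these genes could be split or lost in counting, so their values are uncertain.

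Ifih1 was lower in CD8 KO, with 4.33, 7.21 and 8.14 CPM against 19.2, 16.7 and 16.8 CPM in CD4 KO. The log2 fold change was -1.40 (SE 0.24, edgeR adjusted p = 0.00025) in KO and -0.72 (SE 0.23, edgeR adjusted p = 0.0576) in WT. CD8 lay entirely below CD4 in both genotypes. Ifi27l2a, a small mitochondrial interferon-induced protein gene, had 36.6, 50.9 and 66.3 CPM in CD8 WT and 105, 86.5 and 84.4 CPM in CD4 WT (-0.83, SE 0.18, edgeR adjusted p = 0.0043). In KO it had 53.1, 54.1 and 77.6 CPM in CD8 and 85.3, 87.3 and 88.9 CPM in CD4 (-0.49, SE 0.17, edgeR adjusted p = 0.123). Irf1 (-0.54, SE 0.15, edgeR adjusted p = 0.0349; 0.055 with agreeing Treg pairs summed) and Samhd1 (-0.45, SE 0.12, edgeR adjusted p = 0.0258) were called lower in WT only, with KO values of 0.04 (Irf1) and -0.07 (Samhd1). The difference between genotypes in these fold changes equals the difference between the CD8 and CD4 effects of KO, which was called for none. The WT count depended on single libraries: it was 15 without CD8 WT replicate 3, 4 without CD4 WT replicate 3, and 3 without CD8 WT replicate 1, CD8 WT replicate 2 or CD4 WT replicate 1. Mx1, an antiviral GTPase that did not pass the filter, had 5.02, 7.64 and 6.92 CPM in CD8 WT and 0, 0.966 and 1.69 CPM in CD4 WT. With no filter it was called higher in CD8 WT (2.69, edgeR adjusted p = 0.000406).

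**Figure D3:**
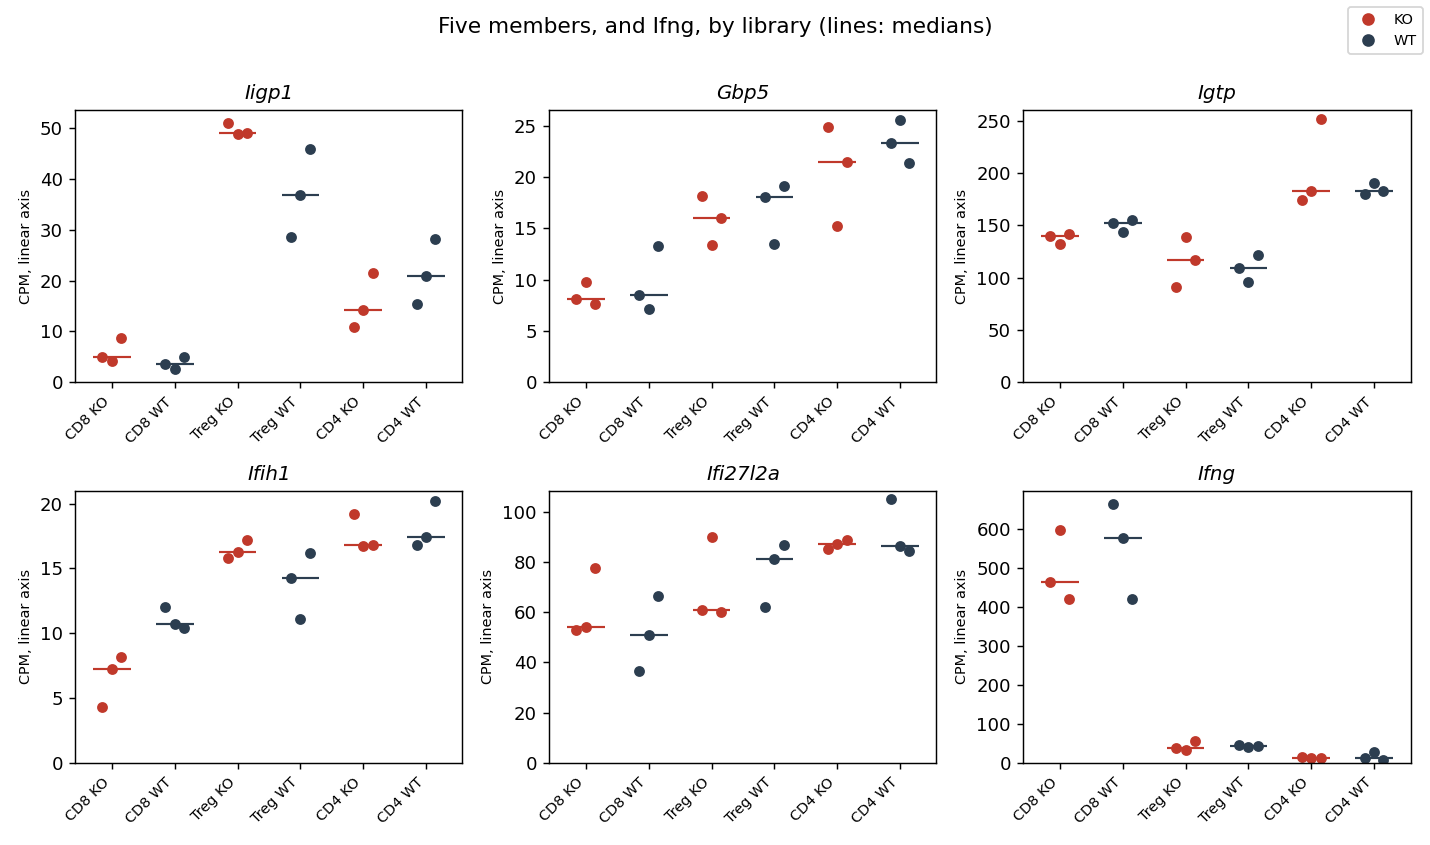
CPM (linear axes from 0) of Iigp1, Gbp5, Igtp, Ifih1, Ifi27l2a and Ifng in each library by group; points are libraries, red for KO and dark blue for WT, and lines are group medians. The 5 members are lower in CD8 than in CD4, while Ifng is at 419 to 665 CPM in CD8 and at 7.87 to 56.5 CPM elsewhere.

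The pathway around these genes was read from a further list of 69 genes, of which 59 were tested. In CD8 against CD4, 1 was higher and 9 lower in KO, and 2 were higher and 9 lower in WT (edgeR). Among all genes 1.37% were higher and 2.21% lower in KO, and 3.49% higher and 1.88% lower in WT. Ifng, which encodes interferon gamma, averaged 494 ± 93.2 CPM in CD8 KO and 555 ± 124 CPM in CD8 WT (SD, n = 3 each). CD8 exceeded CD4 by a log2 fold change of 5.19 (SE 0.30, edgeR adjusted p = 2.27e-08) in KO and 5.07 (SE 0.30, edgeR adjusted p = 3.21e-08) in WT. Ifnb1, a type I interferon, had 0 counts in every library. The kinase gene Jak2 was lower in CD8 (-1.24 in KO and -0.98 in WT). The antiviral membrane protein genes Ifitm2 (-1.76 and -1.01) and Ifitm3 (-1.85 and -1.55) were lower as well, together with Slfn2 (-0.96 and -0.86) and Ly6a (-0.58 and -0.68). All of these passed the threshold in both genotypes (edgeR). Of 4 receptor genes tested none was called in KO. In WT Ifngr1 was called higher (0.46, SE 0.14, edgeR adjusted p = 0.0454) and Ifngr2 lower (-1.08, SE 0.31, edgeR adjusted p = 0.031). In KO against WT, 0 of the 59 genes were called in CD8, CD4 or Treg (edgeR), with 14 in CD8, 6 in CD4 and 2 in Treg at an unadjusted p under 0.05, where the shares of all genes were 16.3%, 7.32% and 2.16%.

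In KO all 10 B cell markers had positive fold changes of CD8 over CD4 (median 0.42), opposite in sign to the 4 members called. The T cell markers Cd3d (-0.36), Cd3e (-0.58), Cd3g (-0.64) and Trac (-0.34) were negative there, like those members, and none of these markers was called. In WT all 10 were negative (median -0.50), as were the members' median (-0.56 over 34 with a fold change, against -0.01 for all genes) and 29 of those 34 members. Cd3d (0.27), Cd3e (0.04) and Trac (0.35) were positive in WT and Cd3g (-0.10) negative. The part of B cell or T cell RNA was not tested in either genotype.

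The libraries labelled Treg differed from CD4 in a large part of the transcriptome. Called in either direction were 48% of all genes in KO and 43% in WT. In KO 13 of 35 members were higher (37.1%, background 27.8%) and 2 lower (5.71%, background 20.3%). In WT 9 were higher (25.7%, background 24.8%) and 2 lower (5.71%, background 18.2%; edgeR). All 9 of WT were among the 13 of KO, while 20.9% of all genes were called higher in both genotypes. The 5 members that passed the filter only through Treg had to be high there. Without them, 8 of 30 (26.7%) were higher in KO and 5 of 30 (16.7%) in WT. The background still holds all genes that passed only through Treg, so these shares cannot be set against it. Of the 35 members 23 were positive in KO (55.9% of all genes) and 16 in WT (53.4%). Treg lay entirely above CD4 for 13 members in KO (background 32.9%) and 9 in WT (29%), and entirely below for 2 (24.5%) and 8 (21.6%). At an unadjusted p under 0.05 there were 16 in KO (background 53.5%) and 12 in WT (49.9%). All 3 Treg libraries of a genotype entered these tests, although a pair among them differed by no more than sampling noise. With each such pair summed, Irgm2 in KO was the only call among the members lost (-0.78, edgeR adjusted p = 0.0659). These comparisons share the CD4 libraries with those of CD8 against CD4.

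Ifi44, an interferon-induced protein gene at chr3:151730922-151749960 on the minus strand, was nearly confined to Treg libraries. It had 6.08, 5.74 and 13.5 CPM in Treg KO and 0, 0.523 and 0.468 CPM in CD4 KO. It had 6.48, 11.1 and 7.65 CPM in Treg WT and 0 in each CD4 WT library. In KO 22 counts stood against 2, a ratio of CPM of 26.0 (95% exact counting interval 6.39 to 228.0). In WT 22 counts stood against 0, a ratio of 14.5 if the 0 is set to a floor of 3 counts over the group. That ratio has no counting interval and is no lower limit. CD8 libraries had at most 0.515 CPM. Both comparisons passed (edgeR adjusted p = 7.51e-06 in KO and 3.05e-06 in WT). Ifi44, like Rtp4, Oasl2, Ifit1 and Xaf1, entered the tests only through its Treg counts. A high level in Treg was thus a condition of testing these genes, and their calls are no independent support for it.

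Rtp4, which encodes a chaperone of G protein-coupled receptors, had 9.73, 15.3 and 17.2 CPM in Treg KO and 0.875, 3.14 and 2.34 CPM in CD4 KO. It had 7.78, 9.83 and 13.4 CPM in Treg WT and 4.37, 0.966 and 2.25 CPM in CD4 WT. Treg lay above CD4 in both genotypes, by a log2 fold change of 2.74 (SE 0.46, edgeR adjusted p = 9.82e-06) in KO and 2.16 (SE 0.50, edgeR adjusted p = 0.000751) in WT. Oasl2 had 12.2, 3.83 and 4.91 CPM in Treg KO and 7.78, 11.1 and 5.73 CPM in Treg WT. Set against its CD4 values above, the log2 fold change was 2.73 (SE 0.63, edgeR adjusted p = 0.000594) in KO and 1.36 (SE 0.51, edgeR adjusted p = 0.0294) in WT, the second lost in DESeq2 (adjusted p = 0.0891). That WT call was also kept in only 3 of 6 fits with 1 library left out (edgeR adjusted p up to 0.168).

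Ifit1, which binds viral RNA that lacks cap methylation, had 7.29, 6.7 and 16 CPM in Treg KO and 3.5, 1.05 and 5.15 CPM in CD4 KO. It had 9.07, 8.6 and 11.5 CPM in Treg WT and 2.19, 3.38 and 5.62 CPM in CD4 WT. The log2 fold changes were 1.54 (SE 0.49, edgeR adjusted p = 0.00953) and 1.35 (SE 0.49, edgeR adjusted p = 0.0257). Without Treg KO replicate 3 the first was 1.05 and not called. The second call was kept in only 3 of 6 fits with 1 library left out (edgeR adjusted p up to 0.122). Rsad2, which encodes the radical enzyme viperin, had 36.5, 45 and 38.1 CPM in Treg KO and 15.7, 20.9 and 21.1 CPM in CD4 KO. It had 53.1, 43 and 48.7 CPM in Treg WT and 30.6, 19.3 and 25.3 CPM in CD4 WT, and was called in both (1.07 and 0.97). Irf7, the master factor of type I interferon production, was called in both as well. It had 8.51, 12.4 and 12.3 CPM in Treg KO, 15.6, 9.83 and 11.5 CPM in Treg WT, 7, 4.7 and 3.74 CPM in CD4 KO and 6.56, 5.8 and 5.62 CPM in CD4 WT. Treg lay above CD4 throughout, by 1.09 (SE 0.38, edgeR adjusted p = 0.0178) in KO and 1.02 (SE 0.38, edgeR adjusted p = 0.0278) in WT. The WT call of Irf7 was kept in only 2 of 6 fits with 1 library left out (edgeR adjusted p up to 0.137). Irf7 overlaps Phrf1 on the opposite strand, and the strand setting of the counting is not given.

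Iigp1, lowest in CD8, was highest in Treg, with the values given above for all 3 cell types. Treg exceeded CD4 by 1.68 (SE 0.25, edgeR adjusted p = 1.38e-06) in KO and 0.79 (SE 0.25, edgeR adjusted p = 0.0115) in WT. By mean CPM the order was Treg KO, Treg WT, CD4 WT, CD4 KO, CD8 KO and CD8 WT, and the neighbours CD4 WT and CD4 KO, and CD8 KO and CD8 WT, overlapped. Parp14 (0.67 and 0.71) and Samhd1 (0.52 and 0.39) completed the 9 called higher in both genotypes. Among these, Ifi44, Rtp4, Oasl2 and Ifit1 had passed the filter only through Treg. Xaf1, a pro-apoptotic gene, was called in KO only, with 8.51, 9.57 and 7.37 CPM in Treg KO and 2.62, 3.66 and 4.68 CPM in CD4 KO (1.22, SE 0.40, edgeR adjusted p = 0.0131), and was lost in DESeq2 (adjusted p = 0.0636). Gbp4 (0.56), Gbp7 (0.44) and Irf9 (0.35), a partner of STAT2, were also called in KO only. The value of Gbp4 is uncertain because Gbp8 and Gbp9 cover its 3' end.

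Lower in Treg than in CD4 was Igtp in both genotypes. It had 91.2, 139 and 117 CPM in Treg KO and 109, 95.9 and 122 CPM in Treg WT, below every CD4 library of the same genotype. The log2 fold changes were -0.80 (SE 0.14, edgeR adjusted p = 1.11e-05) in KO and -0.75 (SE 0.14, edgeR adjusted p = 5.06e-05) in WT. Irgm2 was called lower in KO with 13.4, 13.4 and 8.59 CPM in Treg KO and 18.4, 23.5 and 20.6 CPM in CD4 KO (-0.80, SE 0.33, edgeR adjusted p = 0.0442). That call was lost in DESeq2 (adjusted p = 0.0663) and on leaving out any of 5 of the 6 libraries. Bst2 was called lower in WT, where 24.6, 20.9 and 29.6 CPM in Treg stood against 57.6, 65.2 and 67.5 CPM in CD4 (-1.33, SE 0.28, edgeR adjusted p = 0.000479), and not in KO (-0.28). Igtp and Iigp1, both IRGs, were thus called in opposite directions in both genotypes. Because Irgm2 covers the 3' end of Igtp on the same strand, the values of Igtp and Irgm2 are uncertain.

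**Figure D4:**
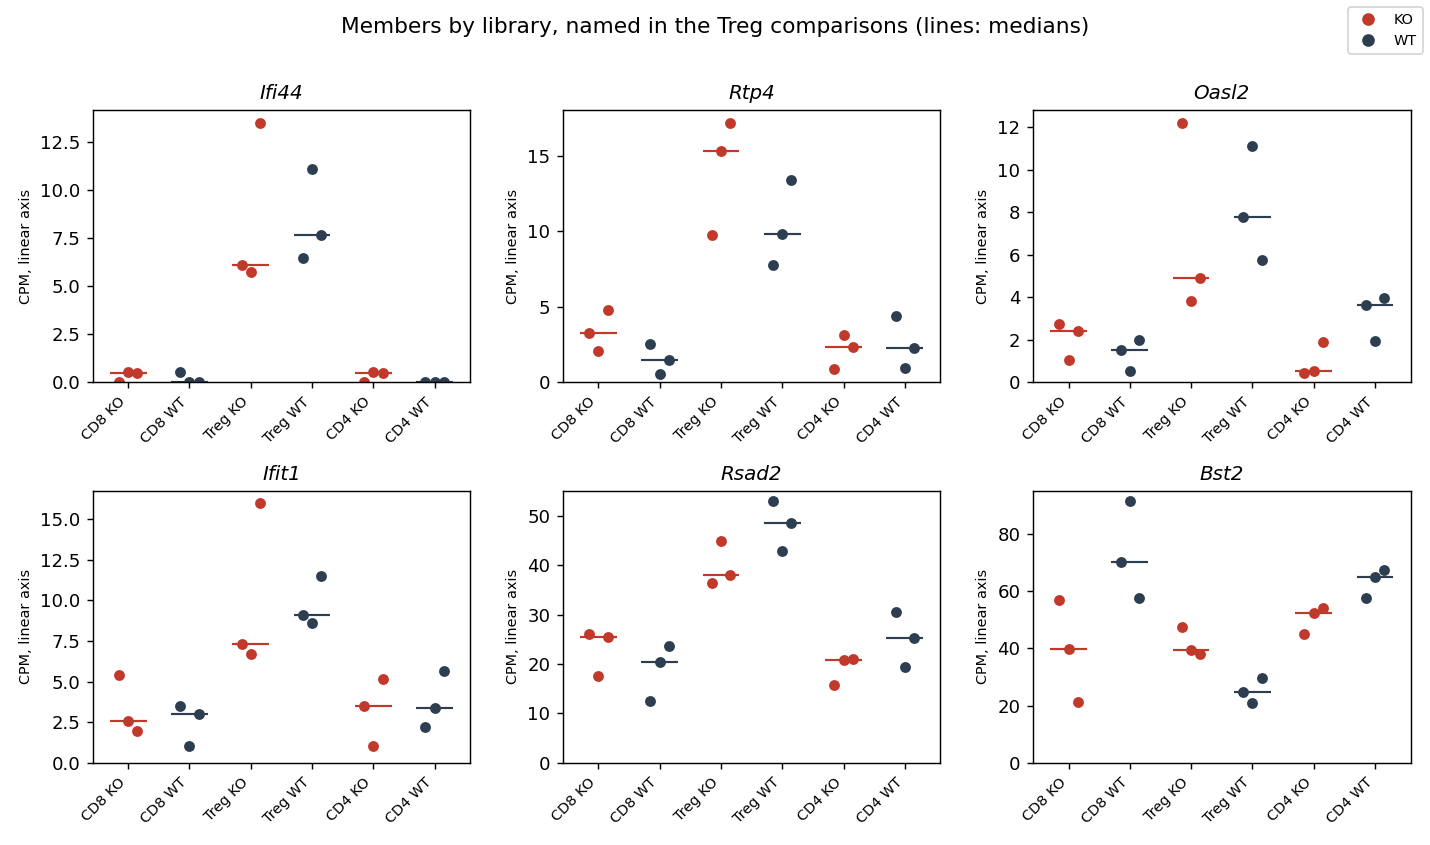
CPM (linear axes from 0) of Ifi44, Rtp4, Oasl2, Ifit1, Rsad2 and Bst2 in each library by group; points are libraries, red for KO and dark blue for WT, and lines are group medians. Ifi44 and Rtp4 are high in the Treg libraries of both genotypes, and Bst2 is low in Treg WT.

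In Treg against CD4, 22 of the 59 tested genes of the pathway list were higher and 13 lower in KO, and 16 were higher and 13 lower in WT (edgeR). Among all genes 27.8% were higher and 20.3% lower in KO, and 24.8% higher and 18.2% lower in WT. The genes named here are a description. The inhibitor genes Socs1 (-2.06 and -1.88), Ptpn2 (-0.92 and -0.79) and Socs3 (-0.67 and -0.90) were lower in both genotypes. So were the immunoproteasome genes Psmb8 (-1.08 and -1.11) and Psmb9 (-1.33 and -1.89) and the peptide transporter gene Tap1 (-0.31 and -0.61). Higher in both were Slfn5 (2.18 and 1.82), Slfn8 (1.69 and 1.80), Sp100 (1.10 and 0.73), the receptor genes Ifnar1 (0.79 and 0.67) and Ifngr1 (0.68 and 0.65), and Jak1 (0.63 and 0.46). Ifng was higher as well (1.60 and 1.35). Markers of myeloid and dendritic cells summed to 51.56 to 71.73 CPM in Treg KO, 56.39 to 68.68 in Treg WT, 15.91 to 21.43 in CD4 KO and 20.78 to 24.04 in CD4 WT, and 4 of 5 tested were called higher in both genotypes. B cell markers in KO were higher for 5 of 10, and in WT for 2 of 10. Siglech, which marks plasmacytoid dendritic cells, was at 0 to 1.91 CPM in Treg libraries. The part of these cells in the members' levels was not tested.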

How the data were processed

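Deposited were unnormalized whole counts for each Ensembl gene. Libraries were made from 500 ng total RNA with the QuantSeq 3' FWD kit and molecular identifiers, per the labels' protocols. The tools named are STAR 2.5.3a and UMI-tools 1.0.0, with Subread 2.0.0 (featureCounts), cutadapt 2.10 and FastQC, and the genome is GRCm38 (mm10), per the submitters' processing notes. No source used here gives their settings, the strand setting or the handling of reads with several alignments. Gene names and positions came from GENCODE M21 (GRCm38), which matched 55227 of 55487 genes. All columns belonged to labelled libraries (0 unused).

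The filterByExpr step of edgeR 4.0.16 (R 4.3.3; minimum count 10, here 5.42 CPM in 3 or more libraries) left 12693 genes. TMM scaling and a robust glmQLFit to 6 group means followed, with 12 residual degrees of freedom from 18 libraries. Each contrast went through glmQLFTest, with Benjamini-Hochberg adjustment over every gene tested and a threshold of 0.05. An exact permutation test of 3 libraries against 3 cannot go below 0.1, so moderated tests were used. On simulated counts for KO against WT in CD8, 26.9% of genes changed 1.5-fold were recovered, 78.5% of those changed 2-fold and 97.9% of those changed 4-fold. These shares are averages over 186 to 189 changed genes, so they do not give the recovery for the members. DESeq2 1.42.0 was an alternative. A chi-square test on genes whose counts summed to 20 or more compared replicate pairs. Promoter windows came from RefSeq, and overlapping matches were all counted.

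Values by library are given for up to 6 members with the largest called rise and fall in each comparison, the 3 with the lowest unadjusted p in KO against WT, and the member of highest mean CPM per role. Ebi3, Mx1, Ifng and other pathway genes were added. The members, lists and rules were chosen with earlier results of these data known.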

Additional observations from a re-analysis of the deposited data

How the results depend on the processing

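Fold changes of the named members kept their sign under all alternatives that gave them a value. With only the libraries compared, 26 to 31 of the 35 members were tested, depending on the comparison. Values missing under an alternative are left out of the counts that follow. Of their values under alternatives other than leaving out a library, 182 stayed on the same side of the threshold, 3 passed it newly and 14 no longer passed. With 1 library left out these were 175, 3 and 32. For KO against WT in CD8 the count of all genes called, 21, became 447 with no filter on low counts, 35 with RLE scaling, 72 in DESeq2, 0 with only the libraries compared, 12 with the replicate block, 1 with agreeing library pairs summed, and 0 to 646 with 1 library left out. Members called there were 3 higher and 1 lower with no filter, 1 lower in DESeq2, and 0 to 3 higher and 0 to 1 lower with 1 library left out.

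For KO against WT in CD4 the count of all genes, 0, became 22 with no filter, 1 in DESeq2, 2 with only the libraries compared, and 0 to 2 with 1 left out. For CD8 against CD4 in KO, 455 became 693 with no filter and 288 to 458 with 1 left out, with 2 to 5 members lower. In WT, 682 became 415 in DESeq2, 226 with only the libraries compared and 306 to 1265 with 1 left out. There 1 member was higher with no filter and with pairs summed (0 to 1 with 1 left out). With only the libraries compared, 3 of the 28 members tested were lower (3 to 15 with 1 left out).

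For Treg against CD4 in KO, 6 members were lower with no filter, 1 in DESeq2 and 1 with pairs summed, against 2; with 1 library left out 8 to 12 were higher and 1 to 2 lower. In WT, 5 of the 27 members tested were higher with only the libraries compared, against 9 of 35. With no filter 8 were lower, against 2, and with 1 left out 5 to 9 were higher and 2 to 3 lower. For the difference between the CD8 and CD4 effects, 602 genes were called with no filter and 130 in DESeq2, against 0, and 3 members with no filter; with 1 left out 0 to 859 genes and 0 to 3 members. The cause of these shifts was not tested.

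Replicate numbers did not pair the libraries: correlations of deviations between same-numbered libraries ran from -0.56 to 0.536, and in no comparison were all above 0.1. All 3 libraries correlated best with their own number only for Treg against CD4 in KO. With the replicate block the members called were 4 lower for CD8 against CD4 in KO, 8 in WT, 13 higher for Treg against CD4 in KO and 10 in WT. RLE scaling shifted the median of all genes by at most 0.045 (log2). At the depth of the Treg libraries, members under about 3 CPM rest on few counts.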
